A study of Mus musculus with 7 samples.

Results

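The collagen family was described in inguinal white adipose tissue, the fat pad of the groin, of NOD/ShiLtJ mice, an inbred strain prone to autoimmune diabetes. Its members are the protein-coding rows of the deposited count table whose symbol is Col, a type number, the letter a and a chain number, which gave 44 genes among the 55487 of the table. They comprise 11 fibrillar, 6 basement membrane (type IV), 6 microfibrillar (type VI) and 21 other chains. The 21 are 9 fibril-associated, 4 network or anchoring, 2 multiplexin, 4 transmembrane and 2 unclassified chains. The question was how this tissue differs after exposure to large proteins released by brown adipocytes. In 4 libraries, here called imBAT, mice had been given by subcutaneous injection the fraction above 100 kDa of brown adipocyte conditioned buffer (1.5 mg/kg body weight, 7 days). In 3 libraries, here called sham, mice had received KRBH buffer. All were NOD mice that had reached a blood glucose of 190 to 230 mg/dL, and tissue was collected 2 to 8 weeks later, with no week given per animal. The labels give neither age nor sex and do not say that each library is a separate mouse, so every p-value reflects only how these libraries vary.

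Collagens are secreted proteins whose chains, made largely of repeats that begin with glycine, wind around each other into rope-like helices. Fibrillar collagens build the fibres that give fat its tensile strength, type IV collagen forms the sheet-like network of the basement membrane that encloses each adipocyte and vessel, and type VI collagen forms beaded filaments between them. In adipose tissue the fibrillar chains come mainly from fibroblasts and adipocyte progenitors, while adipocytes and endothelial cells also make basement membrane chains.

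Sequence before the start site was available from RefSeq (GRCm38.p6) for 35 of the 44 genes, and 5 stretches that the values below refer to are shown. These are the gene with the largest rise (Col3a1), the whole gap between the divergent pair Col4a4 and Col4a3, the adjacent Col6a6 and Col6a5, which differed in response, and Col10a1, one of the genes that fell. Each reads 5′ to 3′ on the strand of the first gene named, from as much as 250 bases before its start and free of annotated exons. The Col6a6 stretch ends 75 bases before the start and the others end at it. Capitals mark matches on either strand to TATAA (the letters of the TATA box) or to GGGCGG (the core of the Sp1 site). The CCAAT box, searched as CCAAT, has no match in these stretches.
Col3a1, chr1:45311288-45311537, plus strand: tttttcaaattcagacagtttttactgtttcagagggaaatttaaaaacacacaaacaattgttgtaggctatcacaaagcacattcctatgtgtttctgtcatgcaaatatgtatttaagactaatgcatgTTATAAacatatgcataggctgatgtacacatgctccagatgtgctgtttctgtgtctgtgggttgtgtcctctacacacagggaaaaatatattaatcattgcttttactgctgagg
Col4a4 to Col4a3, chr1:82586850-82586920, minus strand: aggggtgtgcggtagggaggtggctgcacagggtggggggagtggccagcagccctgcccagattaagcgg
Col6a6, chr9:105828161-105828335, minus strand: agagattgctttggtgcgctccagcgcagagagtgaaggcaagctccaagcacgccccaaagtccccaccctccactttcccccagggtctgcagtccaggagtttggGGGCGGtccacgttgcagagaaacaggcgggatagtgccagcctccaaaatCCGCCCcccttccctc
Col6a5, chr9:105960644-105960893, minus strand: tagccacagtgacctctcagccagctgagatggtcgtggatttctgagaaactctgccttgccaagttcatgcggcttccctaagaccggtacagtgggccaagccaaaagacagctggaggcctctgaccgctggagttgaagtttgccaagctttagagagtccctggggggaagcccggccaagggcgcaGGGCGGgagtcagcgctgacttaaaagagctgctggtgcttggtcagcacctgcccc
Col10a1, chr10:34389731-34389980, plus strand: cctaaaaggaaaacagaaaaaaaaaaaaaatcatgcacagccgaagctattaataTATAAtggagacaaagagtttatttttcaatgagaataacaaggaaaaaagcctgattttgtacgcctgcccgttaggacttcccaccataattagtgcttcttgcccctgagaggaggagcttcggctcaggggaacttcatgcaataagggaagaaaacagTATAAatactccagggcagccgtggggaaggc

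Over the 250 bases before each of the 38 collagen start sites, GGGCGG was present in 57.9%, against 32.7% of all 32851 RefSeq promoters of that length. CCAAT was present in 34.2% against 33.8%, and TATAA in 18.4% against 22.8%. On the opposite strand TATAA reads TTATA, so matches on the opposite strands can overlap, as they do in the Col3a1 stretch. Each match is a description of letters, and no factor was measured here.

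The depth was 41025786 to 44983250 counts in sham libraries and 43360208 to 63650016 in imBAT libraries, and levels are given as CPM, the counts of a gene scaled to library size by edgeR's TMM method. White adipocyte markers were present in every library, with a summed level of 992 to 1798 CPM in sham and 7578 to 16147 CPM in imBAT, and 10 of 10 rose. Fibroblast and progenitor markers stood at 1025 to 1727 CPM in sham and 4804 to 10498 CPM in imBAT (8 of 10 rose, Thy1 fell and Dpp4 was not called). Gsn, gelsolin, made up 81.9% of that sum, and the other 9 summed to 518 to 614 CPM in sham and 781 to 1507 CPM in imBAT. T cell and B cell markers, 8 and 7 genes, all fell, from sums of 948 to 1172 and 1460.1 to 1777 CPM in sham to 162 to 496 and 233 to 635 CPM. No marker of these 4 lists was at 0 in any library. Beside every marker count, here and below, stands the share of all 26393 genes tested, 24.3% called higher and 19.3% lower. Lymph node stroma markers, 4 of 5 tested lower, summed to 750.4 to 1152 CPM in sham and 203 to 493 CPM in imBAT. Without Glycam1, which was 82.6% of the sum, the groups overlapped, at 71.5 to 124 CPM in sham and 43.0 to 177 CPM in imBAT. Cxcl13, the tested marker that was not called, averaged 72.3 CPM in sham and 101 CPM in imBAT and overlapped. Chst4, Ccl19 and Madcam1 had log2 fold changes of -2.12, -1.46 and -1.01 with no overlap between the groups. Of 8 tested pericyte and smooth muscle markers 7 rose. Of 5 tested skeletal muscle markers Myh4, Acta1 and Ckm rose and Mylpf fell, and their list summed to 10.7 to 17.1 CPM in sham and 12.0 to 93.6 CPM in imBAT, highest in imBAT replicate 1. The part of this shift in cell types in the collagen values was not tested, and in bulk tissue fewer cells of a type and less RNA per cell cannot be told apart.

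Collagen genes took a larger share of the RNA in imBAT than in sham. They held 0.234, 0.188 and 0.231% in sham and 1.27, 1.2, 1.4 and 0.719% in imBAT (replicates in order) of all gene counts, a mean of 0.218 ± 0.0256% (SD, n = 3) against 1.15 ± 0.297% (n = 4). Every imBAT library lay above every sham library, and imBAT replicate 4 was the lowest of its group. The mean fibrillar share was 7.68-fold higher in imBAT, followed by type IV (4.22-fold), type VI (3.39-fold) and the other chains (2.97-fold). These ratios are sums over the members and were given no test.

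**Figure D1:**
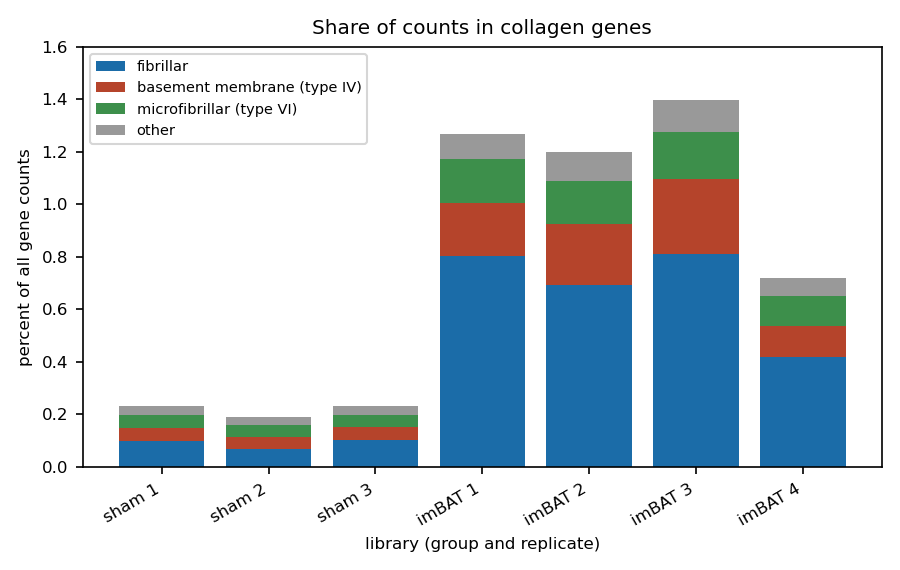
Percent of all gene counts that fell in collagen genes (vertical axis) in each of the 7 libraries, stacked by structural class. The 3 sham bars reach 0.188 to 0.234% and the 4 imBAT bars 0.719 to 1.4%, with fibrillar chains as the largest part in all 7.

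Of the 44 genes, 43 passed the filter on low counts. The exception was Col22a1, a chain of tissue junctions, with 1 to 10 counts per library. Of the 43, edgeR's quasi-likelihood test called 30 higher, where 24.3% of all 26393 genes tested were called higher, and 4 lower, where 19.3% were (Benjamini-Hochberg adjusted p under 0.05). The count of falls was 2 without sham replicate 2. In 31 genes every imBAT library exceeded every sham library (against 26.8% of all genes) and in 4 every one lay below (25.2%). In either direction the groups were apart for 52.0% of all genes. A rise of at least 2 on the log2 scale was called for 14 collagens, against 4.46% of all genes tested. The median log2 fold change was 1.77 for the 43 genes and -0.01 for all genes. Upper-quartile scaling lowered both, to 1.52 and -0.25, and over all genes moved the calls from 6407 higher and 5084 lower to 4722 and 8180.

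**Figure D2:**
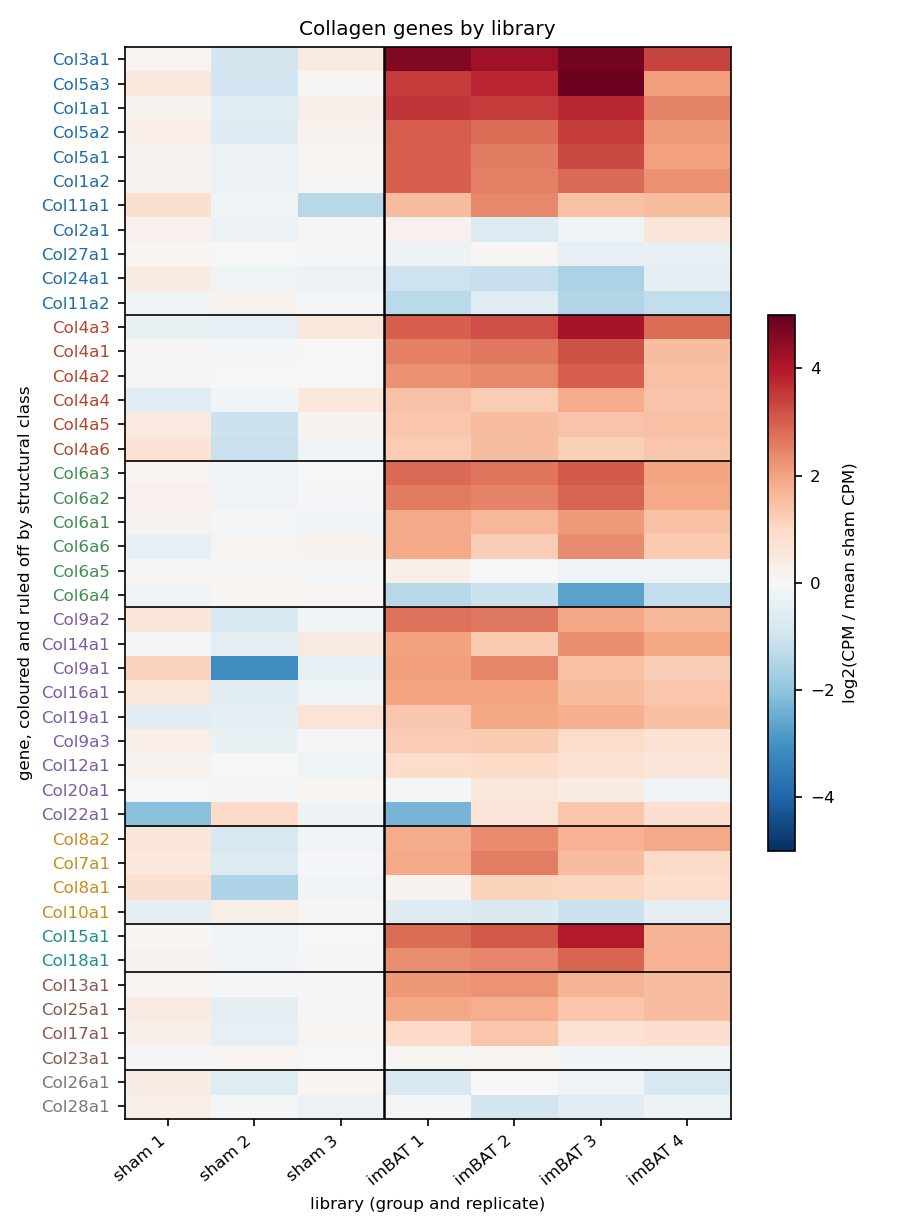
Level of each of the 44 collagen genes (rows, grouped by structural class) in each library (columns), as log2 of its CPM over the mean sham CPM, with red above and blue below the sham mean. Most rows are red across the 4 imBAT libraries, while Col11a2, Col24a1, Col6a4, Col10a1 and Col28a1 are blue in all 4. Of these, Col28a1 was not called.

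Among the fibrillar chains 7 of 11 rose, 2 fell and 2 were not called. All 6 chains of types I, III and V, which form the common fibres of connective tissue, were among the 7. Col3a1, the chain of the fine reticular fibres, stood at 173, 82.3 and 217 CPM in sham and 3872, 2938, 4361 and 1649 CPM in imBAT, replicates in order. Even the lowest imBAT library was several times the highest sham library, and the gene rose 20.4-fold (log2 fold change 4.35 ± 0.47, SE; edgeR adjusted p = 0.000937), the largest rise of the family. Col1a1, the major chain of type I collagen, stood at 186, 111 and 192 CPM in sham and 1967, 1835, 2215 and 909.9 CPM in imBAT and rose 10.6-fold (adjusted p = 0.000867). Its partner Col1a2 rose 6.43-fold, from 289.8, 210.1 and 269 CPM to 2052, 1462, 1836 and 1241 CPM (adjusted p = 0.000767). Within imBAT, replicate 4 held the lowest value of all 3 genes.

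Type V collagen starts and limits the width of type I fibrils, and its 3 chains rose. Col5a3 stood at 25.9, 9.31 and 19.1 CPM in sham and 202, 252, 542 and 76.7 CPM in imBAT, with imBAT replicate 3 far above the next library. Its log2 fold change was 3.89 ± 0.68 (edgeR adjusted p = 0.00331), and 3.24 without that library. Col5a1 went from 66.5, 47.6 and 63.0 CPM to 462, 359, 579 and 246 CPM, a log2 fold change of 2.80 ± 0.30. Col5a2 went from 50.3, 25.6 and 44.9 CPM to 329, 278, 455 and 175 CPM, a log2 fold change of 2.94 ± 0.36. Adjusted p was 0.000902 and 0.00119. The groups did not overlap for any of the 3 chains.

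Fibrillar chains known from cartilage and bone behaved unevenly. Col11a1, which nucleates cartilage fibrils, was low, at 1.24, 0.602 and 0.271 CPM in sham and 2.03, 3.73, 1.97 and 2.08 CPM in imBAT, and rose by 1.81 ± 0.49 on the log2 scale (edgeR adjusted p = 0.0175). Dropping sham replicate 2 removed this call (adjusted p = 0.0654), and its log2 fold change was 2.49 without sham replicate 1. Col11a2, its partner chain, moved the other way, from 24.2, 30.5 and 26.0 CPM to 10.6, 17.5, 9.78 and 11.4 CPM, and its log2 fold change was -1.13 ± 0.21 (adjusted p = 0.00385). Col24a1, a minor fibrillar chain, went from 3.53, 2.31 and 2.19 CPM to 1.31, 1.19, 0.885 and 1.94 CPM (log2 fold change -1.01 ± 0.31, adjusted p = 0.0282), but lost its call on dropping imBAT replicate 1 or 2 or sham replicate 1 or 2 (adjusted p up to 0.112), and also when the leading title number served as a block (0.0959). Col2a1, the main chain of cartilage, stood at 2.58, 1.81 and 2.31 CPM in sham and 2.58, 1.39, 1.94 and 3.4 CPM in imBAT and Col27a1 at 59.2, 53.4 and 51.7 CPM in sham and 45.6, 59.3, 41.8 and 41.8 CPM in imBAT, and neither was called (adjusted p = 0.898 and 0.231). Col27a1 was called lower on dropping imBAT replicate 2 (value -0.34, adjusted p = 0.0221), with upper-quartile scaling (0.0304) and with the block (0.0387). The block fit takes nothing for the contrast from imBAT replicate 2, the only library with its title number. It is therefore not separate from dropping that library. Of 8 cartilage and bone markers 4 were tested and 1, Chad, fell. Their sum was 16.1 to 17.8 CPM in sham and 9.81 to 14.1 CPM in imBAT, and 3.91 to 4.3 CPM in sham and 3.87 to 5.68 CPM in imBAT without Chad, with Acan, Matn1, Matn3 and Ibsp at 0 in at least 1 library.

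All 6 type IV chains rose, with log2 fold changes of 1.35 to 3.35. Col4a1 and Col4a2, which build the basement membrane of nearly every tissue, were the most abundant. Col4a1 stood at 229, 215 and 225 CPM in sham and 1268, 1391, 2051 and 653 CPM in imBAT, and rose 6.01-fold (edgeR adjusted p = 0.00147). Col4a2 stood at 179, 168 and 169 CPM in sham and 847, 919.8, 1370.3 and 469 CPM in imBAT, and rose 5.24-fold (adjusted p = 0.0015). The sham libraries lay close together in both genes, whereas imBAT replicates 3 and 4 were the highest and lowest of their group and far apart. Blood endothelial markers moved beside them, with 6 of 7 higher and Pecam1 lower and a summed level of 639.8 to 722 CPM in sham and 859 to 1106 CPM in imBAT, none at 0. Their median log2 fold change was 0.97, and that of the white adipocyte markers, which all rose, was 3.11. The part of either cell type in the type IV values was not tested.

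The minor type IV chains are best known from kidney, lung and epithelia. Col4a3 was barely detected in sham, at 0.243, 0.241 and 0.465 CPM in sham and 2.54, 2.96, 5.43 and 2.2 CPM in imBAT, and rose 10.2-fold (log2 fold change 3.35 ± 0.44, edgeR adjusted p = 0.00133). Col4a4, whose start lies 71 bases from that of Col4a3, went from 2.03, 2.79 and 4.5 CPM to 8.55, 7.58, 11.3 and 8.24 CPM and rose 2.86-fold (adjusted p = 0.00434). Col4a5, from 23.7, 7.97 and 19.3 CPM to 44.8, 49.6, 45.6 and 46.5 CPM, rose 2.75-fold (adjusted p = 0.00713). Col4a6, from 31.0, 8.65 and 17.0 CPM to 45.0, 55.4, 43.1 and 48.8 CPM, rose 2.55-fold (adjusted p = 0.0171). The imBAT values of the last pair were close together while sham replicate 2 was the lowest library in both. Col4a6 lost its call on dropping sham replicate 3 (adjusted p = 0.0623) or with no expression filter (0.0678).

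Type VI collagen divided by gene. The 3 classical chains, which assemble together into the beaded filaments around adipocytes, rose. Col6a3, whose cleaved tail is the secreted peptide endotrophin, stood at 138, 115 and 129 CPM in sham and 912, 818, 1056 and 497 CPM in imBAT and rose 6.44-fold (log2 fold change 2.69 ± 0.25, edgeR adjusted p = 0.000816). Col6a2 rose 5.69-fold, from 89.4, 68.3 and 72.4 CPM to 459, 428, 571 and 289 CPM (adjusted p = 0.000816). Col6a1 rose 3.49-fold, from 144, 119.7 and 116 CPM to 471, 397, 548 and 352 CPM (adjusted p = 0.000816). All 4 imBAT libraries were above all sham libraries in each.

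The later-described chains Col6a4, Col6a5 and Col6a6, which can take the place of Col6a3 in the filament, lie next to each other on chromosome 9 and differed. Col6a6 rose 3.42-fold, from 4.77, 6.98 and 7.08 CPM to 23.1, 14.6, 32.6 and 15.7 CPM (edgeR adjusted p = 0.00327). Col6a5 stayed between 3.1 and 4.31 CPM over all 7 libraries, at 3.75, 3.73 and 3.33 CPM in sham and 4.31, 3.61, 3.1 and 3.16 CPM in imBAT. It missed the threshold (log2 fold change -0.02 ± 0.19, adjusted p = 0.929). Col6a4 fell, from 56.4, 68.4 and 68.6 CPM to 24.6, 30.7, 10.2 and 27.6 CPM (log2 fold change -1.47 ± 0.31, adjusted p = 0.00705), the largest fall of the family. The imBAT values of Col6a4 all lay below the sham values, with imBAT replicate 3 the lowest. That library also had the lowest sums of T cell and B cell markers, 162 and 233 CPM, whose part in the fall was not tested.

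Fibril-associated collagens sit on the surface of fibres and link them to their surroundings, and 6 of the 8 tested rose while none fell. Col14a1, found on type I fibres, went from 35.3, 27.8 and 51.6 CPM to 156, 94.1, 190.5 and 145 CPM and rose 3.82-fold (edgeR adjusted p = 0.00189). Col16a1 went from 60.8, 27.7 and 35.7 CPM to 161, 164, 123 and 107 CPM and rose 3.35-fold (adjusted p = 0.00257). Col9a2, Col9a3, Col12a1 and Col19a1 also rose, by 2.31, 1.08, 0.80 and 1.63 on the log2 scale, with mean imBAT levels of 14.6, 13.2, 33.4 and 0.612 CPM. Col19a1 lost its call on dropping sham replicate 2 (adjusted p = 0.0612) or with the title number as a block (0.0577). Col9a1, of the chain trio that decorates cartilage fibrils, stood at 2.23, 0.12 and 0.775 CPM in sham and 4.46, 5.7, 2.88 and 2.44 CPM in imBAT, with no overlap between the groups. Its log2 fold change of 1.91 ± 0.73 missed the threshold (adjusted p = 0.0636). It passed on dropping sham replicate 1 (value 3.10, adjusted p = 0.0142), with DESeq2 (0.0154) and with limma voom with quality weights (0.00902). Col20a1 stood at 20.1, 18.5 and 21.1 CPM in sham and 18.6, 29.6, 25.8 and 17.7 CPM in imBAT, with overlapping groups (adjusted p = 0.409).

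Of the network and anchoring chains, Col7a1, which forms the anchoring fibrils beneath epithelia, went from 21.9, 9.49 and 14.4 CPM to 56.2, 90.5, 43.9 and 29.8 CPM and rose 3.61-fold (edgeR adjusted p = 0.00792). Col8a2, of the lattice made by type VIII collagen, rose 3.97-fold, from 1.06, 0.401 and 0.64 CPM to 2.54, 3.58, 2.36 and 2.61 CPM (adjusted p = 0.00329). Its partner Col8a1, a vessel wall chain, stood at 10.8, 2.11 and 5.64 CPM in sham and 7.07, 13.4, 13.1 and 11.5 CPM in imBAT and the groups overlapped. Its log2 fold change of 0.87 ± 0.48 missed the threshold (adjusted p = 0.171). On dropping sham replicate 1 it passed, at 1.54 (adjusted p = 0.0295). Col10a1, known from the growth plate of bone, fell from 11.2, 19.1 and 16.0 CPM to 9.76, 9.45, 7.37 and 10.9 CPM (log2 fold change -0.72 ± 0.21, adjusted p = 0.0227). Dropping sham replicate 2 or 3 removed the call (adjusted p = 0.104 and 0.0791).

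The 2 multiplexins, of the zone between basement membrane and connective tissue, both rose. Col15a1 stood at 51.2, 43.9 and 48.8 CPM in sham and 335, 406, 749 and 156 CPM in imBAT and rose 8.57-fold (log2 fold change 3.10 ± 0.48, edgeR adjusted p = 0.00218). Col18a1, the source of the fragment endostatin, stood at 34.0, 27.4 and 29.5 CPM in sham and 153, 164, 225 and 101 CPM in imBAT and rose 5.3-fold (adjusted p = 0.000912). In both genes imBAT replicate 3 was highest and replicate 4 lowest, the same order at the ends as in Col4a1 and Col4a2.

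Among the transmembrane chains, Col17a1, part of the hemidesmosomes that fasten epithelial cells, rose 1.99-fold, from 28.2, 18.0 and 25.6 CPM to 45.9, 63.0, 39.4 and 42.5 CPM (edgeR adjusted p = 0.00602). Mammary epithelium markers moved beside Col17a1 and Col7a1, with 7 of 7 tested higher and a sum of 98.7 to 357 CPM in sham and 662 to 1313 CPM in imBAT (Wap, a milk protein gene, was at 0 in at least 1 library). Keratinocyte markers, the sign of skin, summed to 4.26 to 5.41 CPM in sham and 3.71 to 6.51 CPM in imBAT, with Krtdap and Flg2 at 0 in at least 1 library. Of 3 tested keratinocyte markers Dsg1a fell (log2 fold change -1.67 ± 0.36, adjusted p = 0.00695) and the others were not called. Col13a1 and Col25a1 rose by 1.95 and 1.69 on the log2 scale, to means of 7.44 and 3.67 CPM. Col23a1 was not called, with 13.4, 14.8 and 13.8 CPM in sham and 15.3, 14.9, 12.6 and 12.8 CPM in imBAT (log2 fold change -0.01 ± 0.13, adjusted p = 0.94). Of the unclassified chains, Col26a1 stood at 1.35, 0.682 and 1.12 CPM in sham and 0.626, 1.08, 0.909 and 0.599 CPM in imBAT and Col28a1, a chain found around Schwann cells, at 5.83, 4.59 and 3.86 CPM in sham and 4.57, 2.53, 3.32 and 4.02 CPM in imBAT. Neither was called (adjusted p = 0.389 and 0.22), and Schwann cell and nerve markers, of which 2 of 6 rose, summed to 167 to 307 CPM in sham and 254 to 375 CPM in imBAT with none at 0. Mbp, which was not called, made up 52.5% of that sum. The other 5 summed to 35.5 to 139 CPM in sham and 144 to 221 CPM in imBAT, with no overlap.

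**Figure D3:**
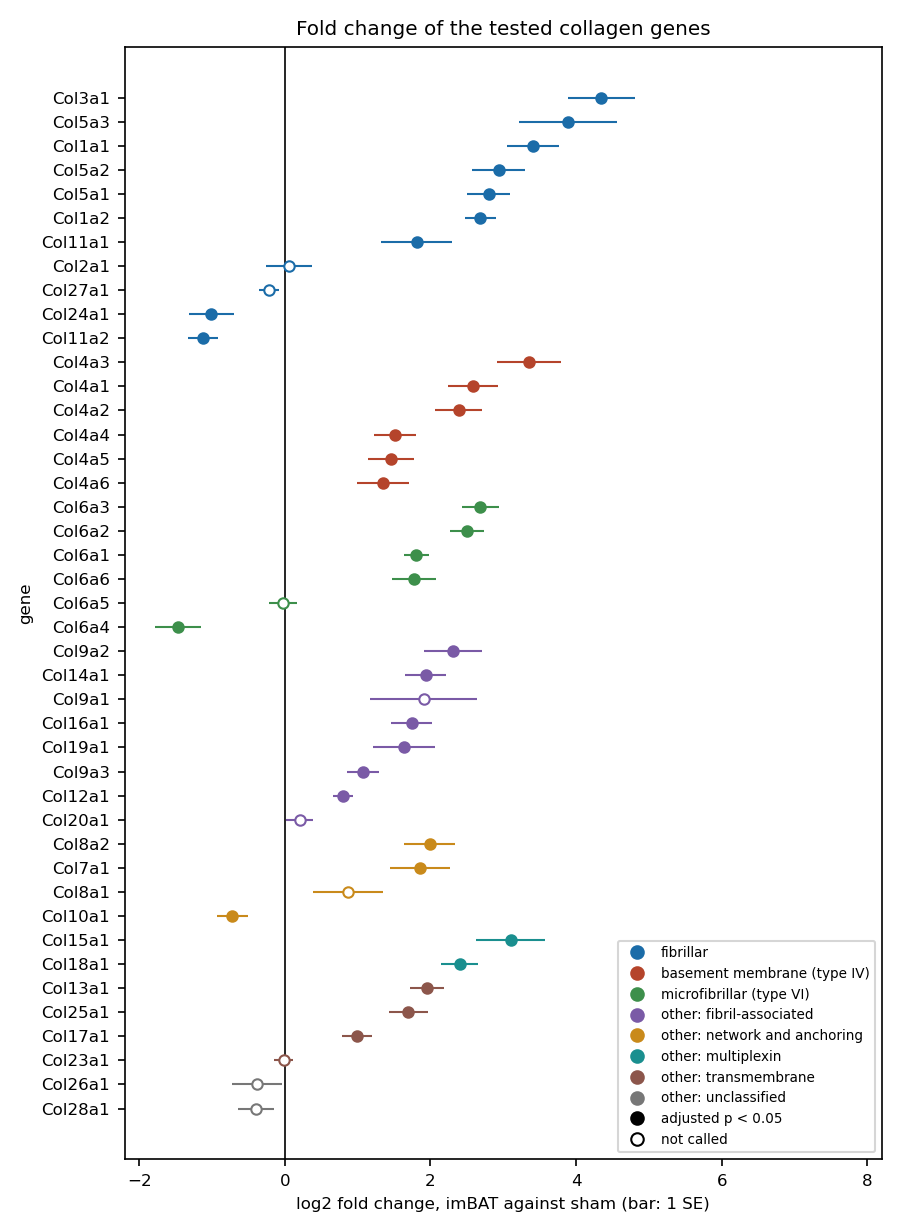
Log2 fold change of imBAT against sham (horizontal axis) for the 43 tested collagen genes, grouped by structural class, with bars of 1 standard error and filled points for an adjusted p under 0.05. Values run from -1.47 for Col6a4 to 4.35 for Col3a1, and all 6 type IV chains lie to the right of 0.

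The order of the members by level, per kilobase of annotated exon, differed between the groups. In sham the mean CPM per kb was highest for Col4a1 (29.9), Col6a1 (28.9), Col4a2 (26.0), Col1a1 (24.8) and Col1a2 (20.6). In imBAT it was highest for Col3a1 (326), Col1a1 (264), Col4a1 (179.7), Col4a2 (136) and Col1a2 (133). Col3a1 thus went from rank 6 to rank 1. Among all collagen counts, Col1a1, Col1a2 and Col3a1 together held 25.2 to 33.6% in sham and 48.6 to 55.9% in imBAT, with no overlap. Col6a1, Col6a2 and Col6a3 held 15.8 to 18.9% and 12.6 to 15.2%. Annotated exon length counts every isoform, and it is 12426 bases for Col1a2 against 6563 for Col1a1, so a level per kb is low for a gene with long rare exons.

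**Figure D4:**
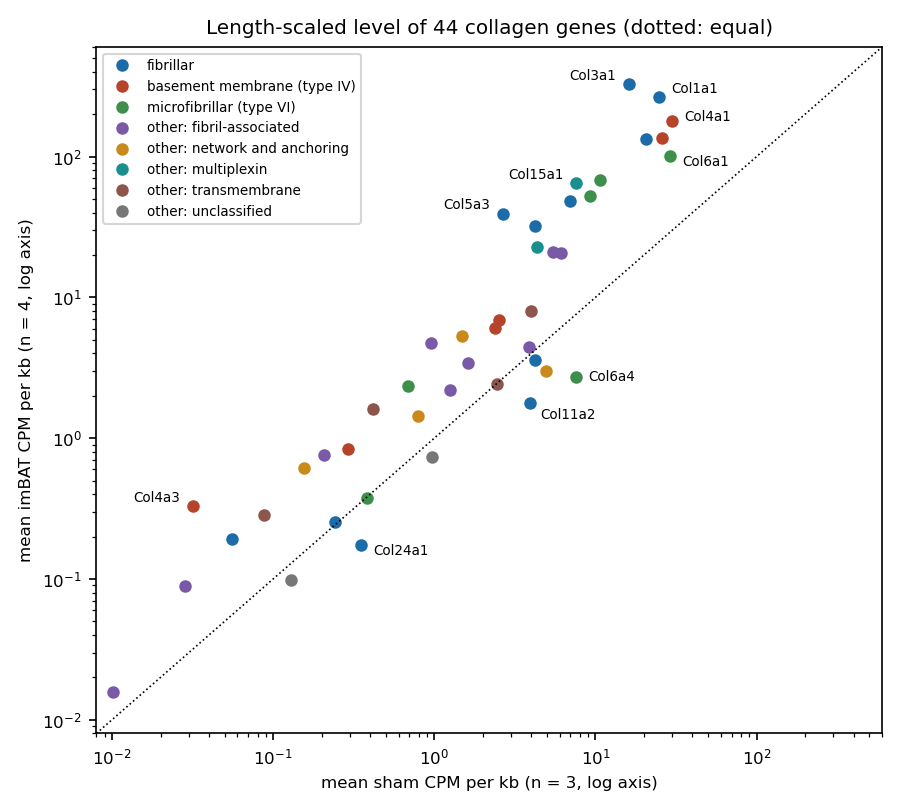
Mean CPM per kb of annotated exon in sham (horizontal, n = 3) and imBAT (vertical, n = 4) for the 44 collagen genes, both on log axes, coloured by structural class. Most points lie above the dotted line of equal levels. Col6a4, Col11a2, Col24a1 and Col10a1, which were called lower, lie below it. Col23a1, Col26a1, Col27a1, Col28a1 and Col6a5, which were not called, also lie below it.

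Ratios between chains that share a molecule or a fibre were compared to describe the makeup of the collagen RNA. For 10 pairs the ratio of CPM per kb was compared with a two-sided exact permutation test, which with 3 against 4 libraries cannot give a p below 0.0571 (0.0816 after Benjamini-Hochberg adjustment over the 10 pairs as found here), so no pair could pass 0.05. That smallest value was reached by the 7 pairs with no overlap. Pairs of genes outside the family were not compared, and single genes had no overlap in 52.0% of cases, so the count of 7 is not read as particular to chain partners. Col3a1 over Col1a1 was 0.624, 0.494 and 0.754 in sham and 1.32, 1.07, 1.32 and 1.21 in imBAT. Col1a1 over Col1a2 was 1.21, 1.00 and 1.35 in sham and 1.81, 2.38, 2.28 and 1.39 in imBAT, with imBAT replicate 4 closest to sham. The log2 ratio was higher in imBAT by 0.99 and 0.70. For type VI, Col6a1 over Col6a2 was 3.05, 3.33 and 3.05 in sham and 1.95, 1.76, 1.82 and 2.32 in imBAT, and Col6a3 over Col6a1 was 0.352, 0.352 and 0.406 in sham and 0.708, 0.754, 0.705 and 0.516 in imBAT. In both the imBAT libraries lay on one side of all sham libraries.

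Type IV pairs showed both large and small shifts. Col4a3 over Col4a4 was 0.127, 0.0919 and 0.11 in sham and 0.317, 0.415, 0.514 and 0.285 in imBAT, a log2 difference of 1.77. Col4a1 over Col4a2 was 1.14, 1.13 and 1.18 in sham and 1.33, 1.34, 1.33 and 1.23 in imBAT, a log2 difference of only 0.19. Col11a1 over Col11a2, chains that moved in opposite directions, was 0.0276, 0.0107 and 0.00563 in sham and 0.104, 0.115, 0.108 and 0.099 in imBAT. The other 3 pairs overlapped between groups, with exact p = 0.686 for Col4a5 over Col4a6, 0.343 for Col5a1 over Col5a2 and 0.114 for Col8a1 over Col8a2 (adjusted p = 0.686, 0.381 and 0.143). Their log2 differences were 0.07, -0.17 and -0.96.

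**Figure D5:**
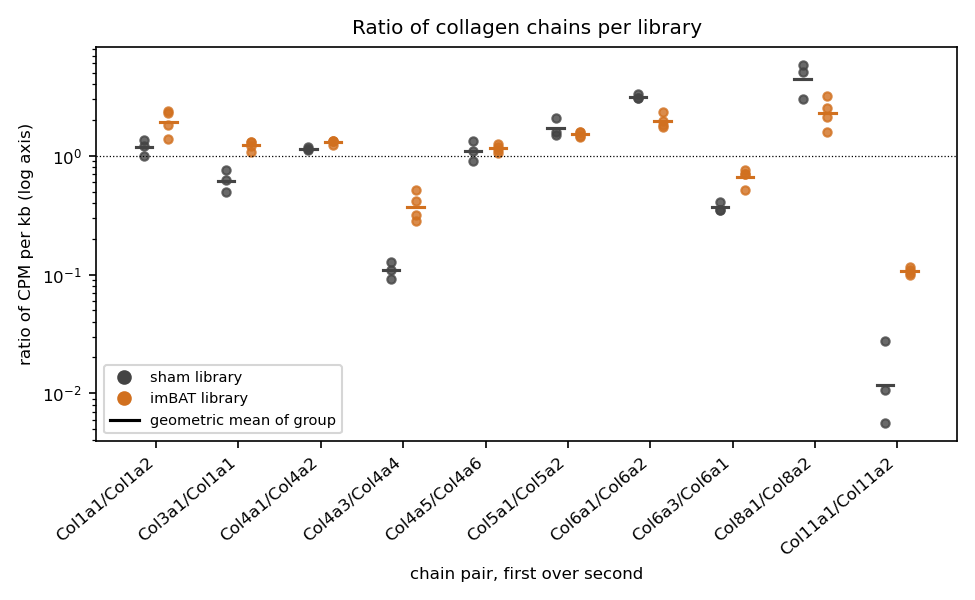
Ratio of CPM per kb (log axis) of the first over the second chain of 10 pairs in each sham library (grey) and imBAT library (orange), with the geometric mean of each group as a bar. The groups are apart in 7 pairs and overlap for Col4a5/Col4a6, Col5a1/Col5a2 and Col8a1/Col8a2.

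Several members are neighbours in the genome (GRCm38). In 8 pairs no other protein-coding gene lies between them, and in 5 of these both genes rose, where 30 of the 43 tested collagens rose, so nothing is read from the count of 5. Col4a1 and Col4a2 on chromosome 8 start head to head and their annotated exons overlap by 22 bases. Col4a4 and Col4a3 on chromosome 1 have the gap of 71 bases printed above, in which none of the motifs searched was found, and Col4a6 and Col4a5 on the X chromosome start 1308 bases apart. Col3a1 and Col5a2 lie tail to tail on chromosome 1 at 45311538 to 45349706 and 45374321 to 45503282. The fifth pair was Col6a2 and Col6a1 on chromosome 10. The 3 pairs that differed in call were Col9a1 with Col19a1, Col6a6 with Col6a5, and Col6a5 with Col6a4, which lies at 105989454 to 106096783 on chromosome 9. Both Col9a1 and Col19a1 had every imBAT library above every sham library, with log2 fold changes of 1.91 and 1.63. Only Col19a1 passed the threshold. The Col6a6 and Col6a5 stretches printed above both hold GGGCGG and no TATAA. The Col6a6 stretch leaves out the 75 bases next to its start, and no relation of these letters to the response was tested.

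Genes that make and handle collagen moved largely with it. Over all genes tested, 24.3% were called higher and 19.3% lower, the shares to set beside each count of this paragraph. Of 19 genes of collagen folding and modification 15 rose and none fell (median log2 fold change 1.14, all genes -0.01). The prolyl 3-hydroxylases P3h1 and P3h3 rose by 1.29 ± 0.14 and 1.35 ± 0.13 on the log2 scale. Crtap rose by 1.14 ± 0.12 and the prolyl 4-hydroxylase P4ha2 by 1.58 ± 0.18. Of 12 tested genes of procollagen cleavage and crosslinking 10 rose and none fell (median 1.42). The propeptide-cleaving enzyme Adamts2 rose from 16.4 ± 4.04 to 159 ± 57.7 CPM (SD, n = 3 and 4), Bmp1, which removes the other propeptide, by 1.74 ± 0.17, and the crosslinking oxidases Loxl1 and Loxl2 by 3.48 ± 0.40 and 2.73 ± 0.35. All 4 tested collagen-cleaving proteases rose (median 2.63), Ctsk by 3.55 ± 0.34, Mmp2 by 2.50 ± 0.29, Mmp9 by 2.76 ± 0.56 and Mmp14 by 0.95 ± 0.15. Adjusted p in edgeR was at most 0.00566 for these 12 genes. Of the 6 proteases listed, Mmp8 and Mmp13 did not pass the filter on low counts. Mmp13 stood at 0.155 to 0.241 CPM in sham and 0 to 0.0981 CPM in imBAT, and Mmp8 overlapped between the groups.

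Of 12 proteins that organise fibrils 10 rose and 1 fell (median 1.90), where 24.3% of all genes tested rose and 19.3% fell. Lum, a small proteoglycan on fibrils, rose from 7.36 ± 3.33 to 108 ± 38.5 CPM, Prelp by 2.59 ± 0.22, Sparc, a collagen-binding glycoprotein, by 2.86 ± 0.32 and Tnxb, a tenascin of fibres, by 2.28 ± 0.26 on the log2 scale. Fmod, fibromodulin, which like Lum binds type I fibrils, went the other way, from 87.6 ± 13.6 to 30.3 ± 9.03 CPM (log2 fold change -1.53 ± 0.24, edgeR adjusted p = 0.00225). Of 9 tested receptors 6 rose and 1 fell (median 0.57), beside the same shares of all genes. The uptake receptor Mrc2 rose by 2.27 ± 0.23, the receptor kinases Ddr1 and Ddr2 by 0.95 ± 0.14 and 1.42 ± 0.23 and the integrin chain Itgb1 by 0.57 ± 0.11. Lair1, an inhibitory collagen receptor of leukocytes, fell by 0.97 on the log2 scale, from 21.5 ± 1.39 to 11.0 ± 4.7 CPM (adjusted p = 0.0297), a call removed by dropping any 1 sham library or imBAT replicate 2 or 4 (adjusted p 0.0554 to 0.0874). Beside these lists, the 9 fibroblast markers other than Gsn summed to 560.0, 518 and 614 CPM in sham and 1507, 781, 1452 and 1193 CPM in imBAT, replicates in order, and their part in these changes was not tested.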

How the data were processed

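RNA was sequenced from inguinal white adipose tissue in 7 libraries, 3 sham and 4 imBAT, grouped by the treatment label and numbered in accession order. The table deposited by the authors holds raw counts for each gene. Per the labels' protocols, STAR 2.7.9a aligned the reads to the Ensembl release 101 primary assembly, and the submitters' processing notes also name edgeR, limma, Salmon 1.5.2, Subread and featureCounts 2.0.3 with no role. The strand setting is not given in the sources used here. Among the collagens, exons of another gene cover at most 6.07% of exon length (Col9a3, by Tcfl5 on the opposite strand) and 5.65% (Col4a3), and under 2% elsewhere.

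Repeated identifiers (287 rows with identical counts) were dropped. edgeR 4.0.16 in R 4.3.3 was fitted to all 26393 genes that passed its expression filter (minimum count 10), with TMM scaling, a robust quasi-likelihood F test on group, and Benjamini-Hochberg adjustment over all of them. A standard error is the log2 fold change over the square root of F. Exon lengths and coordinates came from GENCODE M21 (GRCm38), which holds 55227 of the identifiers. Libraries of 1 group differed by more than sampling noise (chi-square per degree of freedom 20.4 to 216.1).

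Members given with every library are the 2 of each class with the highest level per kb, the 3 largest and smallest log2 fold changes, all that fell or were not called, and tested chain pairs, with Col6a6 added after its values were seen. Pathway genes named are the 4 of each list with the smallest p and any against their list. The members, lists and rules were chosen with earlier results of these data known, and the printed promoters after values were seen. Alternatives tried were DESeq2 1.42.0, voom with quality weights per library (limma 3.58.1, called voom here), and upper-quartile and RLE scaling. Others were no filter, a filter of 1 CPM in at least 3 libraries, the title number as a block and thinned counts. An adjusted p under 0.10 and leaving out each library were also tried. In simulated counts over 25963 genes, only 200 were given a change, 100 with a log2 shift of 1 and 100 with a shift of 2. Of these, edgeR recovered 39% at the smaller size and 85% at the larger, with 11 false calls among 135. In the real counts 43.5% of the genes tested were called. The adjustment of p depends on that share, so the simulated recovery rates do not describe the fit to the real counts.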

Additional observations from a re-analysis of the deposited data

Results flagged for a closer look

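Among the 4 imBAT libraries 1 value lay far from the others in 2 of the 59 sets of values examined, where chance gives about 1 in 20. For Col11a1, imBAT replicate 2 stood at 3.73 CPM against 1.97 to 2.08 CPM in the others, a gap of 0.933 of the whole range. For the ratio of Col4a1 to Col4a2, imBAT replicate 4 stood at 1.23 against 1.33 to 1.34 in the others, a gap of 0.875 of the range of the log2 ratio. Both exceed Dixon's critical value for 4 values.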

How the results depend on the processing

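Of the 34 called collagens, 27 that rose and 2 that fell kept their call and direction under every alternative run on them, and none of the 34 changed direction. The count of rises was 28 to 32 when 1 library was left out and 29 to 31 under the other alternatives, and the count of falls 2 to 4 and 4 to 5. Leaving out 1 library gave 1 to 2 fibrillar falls and 0 to 1 falls among the other chains. Lower calls among the collagen receptors were 0 to 1 when 1 library was left out, and 2 under DESeq2, voom, upper-quartile scaling, an adjusted p under 0.10 and the filter of 1 CPM in at least 3 libraries. Of the 9 genes that were not called, 4 with values near 0 (Col20a1, Col2a1, Col23a1 and Col6a5) changed sign in some setting and the cause was not tested. The other 5 did not. Col20a1 was at -0.031 under upper-quartile scaling, and Col2a1 at -0.18, with -0.18 without imBAT replicate 4 and -0.074 without sham replicate 2. Col23a1 was at 0.013 with voom, 0.025 without imBAT replicate 4 and 0.030 without sham replicate 2. Col6a5 was at 0.066 with voom, 0.029 without imBAT replicate 4, and 0.0082 and 0.0023 without sham replicates 1 and 2. Leaving out 1 library gave -0.061 to 0.030 for Col23a1, -0.18 to 0.25 for Col2a1 and -0.13 to 0.029 for Col6a5. The log2 difference of Col4a5 over Col4a6 was -0.068 to 0.22 when 1 library was left out, below 0 without sham replicate 1.

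The number that opens each title (28, 29 and 31 in both groups) was tried as a replicate block. Only imBAT replicate 2 carries the number 22, so with the block it adds nothing to the contrast. The deviations of same-numbered libraries from their group means had r = -0.014, 0.114 and 0.102, against -0.143 to 0.040 for the 9 differently numbered pairs. The values for 29 and 31 were the highest of the 12, and sham replicates 1 and 2 but not 3 correlated best with their own number. The labels do not say what the number marks, and the main fit treated the libraries as unpaired. With 3 shared numbers, these correlations cannot settle whether the libraries are paired. With the block, 29 collagens were higher and 4 lower. The depth limits the lowest members: Col22a1 had 1 to 10 counts per library and was not tested.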

Other observations

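Within the family, the fall of Col6a4 was larger as a share of collagen RNA than as a level. This follows from the rise of the collagen total and holds for any member that fell. Col6a4 held 2.66 to 4.27% of all collagen counts in sham and 0.0591 to 0.37% in imBAT, and went from rank 9 of 44 to rank 25 by level per kb. Col11a2 went from rank 19 to 29 and Col5a3 from rank 21 to 11. Among the 30 genes that rose, imBAT replicate 4 was the lowest imBAT library for 20 and sham replicate 2 the lowest sham library for 23. Sham replicate 2 also had the lowest sham sum of white adipocyte markers, 992 CPM. In imBAT the lowest sum of these markers was 7578 CPM in replicate 2, against 10292 CPM in replicate 4. The part of these markers in the order of the libraries was not tested.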
